A study of Mus musculus with 2 samples.

Results

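Skeletal muscle fibre barcodes are the droplets of a mouse skin library whose RNA was rich in the contractile genes of striated muscle. A barcode was counted as a muscle fibre barcode when it held at least 200 genes, at most 20% of its unique molecular identifiers (UMIs, each a counted RNA molecule) in mitochondrially encoded mt- genes, and at least 100 UMIs per 10000 (CP10K) summed over Acta1, Ckm, Myh4, Tnnt3 and Myl1. By this rule 116 of 8127 barcodes that passed the gene and mt- limits were fibre barcodes, or 1.43% (95% Clopper-Pearson interval 1.18 to 1.71), and the other 8011 barcodes were what they were set against. None of the barcodes removed by those limits reached the muscle threshold, the highest of them standing at 39.7 CP10K.

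The series asked how depletion of neutrophils changes mouse skin. Skin of 8 week old C57BL/6 mice, either depleted of neutrophils by an antibody to Ly6G (clone 1A8) given at steady state on 2 consecutive days or left as control, was digested for an hour with Liberase and DNAseII to free single cells. What the control mice received is not given in the labels, and neither is the number of mice. Cells of both conditions were marked with hashtag antibodies and pooled into 1 RNA library, and 0 barcodes could be assigned to a condition here, so every value below describes the pool of depleted and control skin.

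A muscle fibre is a single very long cell with many nuclei, filled with sarcomeres in which thick filaments of myosin pull on thin filaments of actin. Its energy comes from phosphocreatine, glycogen and glycolysis in the fast fibres and more from mitochondria and fatty acids in the slower ones, and the myosin heavy chain gene a fibre uses is the usual mark of its type. In mouse skin such fibres form the panniculus carnosus, a thin sheet of striated muscle beneath the dermis and fat, which moves the skin.

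The 5 genes of the rule encode the skeletal alpha-actin of the thin filament (Acta1), the muscle creatine kinase (Ckm), a fast myosin heavy chain (Myh4), the fast troponin T (Tnnt3) and a fast myosin light chain (Myl1). The 250 bases before the RefSeq transcription start of the 4 of them found in the RefSeq promoter table of GRCm38.p6 (the mm10 genome) are printed here because the members were chosen by these genes, and every one holds the E-box CAGCTG, which is printed in capitals. This palindrome, identical on both strands, is a form of the motif that the MyoD family of muscle transcription factors binds. The windows are chr8:123894776-123895025 on the minus strand for Acta1, chr7:19410844-19411093 on the plus strand for Ckm, chr11:67237562-67237811 on the plus strand for Myh4 and chr1:66945057-66945306 on the minus strand for Myl1. Tnnt3 is named only.
Acta1: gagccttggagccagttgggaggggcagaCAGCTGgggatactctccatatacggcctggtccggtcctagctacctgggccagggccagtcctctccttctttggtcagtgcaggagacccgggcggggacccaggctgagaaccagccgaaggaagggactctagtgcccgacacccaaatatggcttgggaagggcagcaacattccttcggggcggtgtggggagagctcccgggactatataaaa
Ckm: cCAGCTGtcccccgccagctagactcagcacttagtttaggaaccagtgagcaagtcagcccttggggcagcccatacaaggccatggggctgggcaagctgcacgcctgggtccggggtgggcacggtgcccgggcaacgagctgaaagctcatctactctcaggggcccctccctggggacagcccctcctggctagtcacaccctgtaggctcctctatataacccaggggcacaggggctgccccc
Myh4: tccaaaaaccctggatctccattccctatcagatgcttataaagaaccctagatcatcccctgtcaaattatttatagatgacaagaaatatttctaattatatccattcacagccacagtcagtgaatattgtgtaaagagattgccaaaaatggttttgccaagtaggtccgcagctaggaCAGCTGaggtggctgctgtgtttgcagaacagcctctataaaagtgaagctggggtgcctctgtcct
Myl1: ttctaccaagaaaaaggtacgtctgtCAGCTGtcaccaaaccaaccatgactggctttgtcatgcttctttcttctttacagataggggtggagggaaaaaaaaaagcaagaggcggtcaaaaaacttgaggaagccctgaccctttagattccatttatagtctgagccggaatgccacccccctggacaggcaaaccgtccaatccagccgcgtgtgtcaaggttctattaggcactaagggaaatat

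The E-box began 221 bases before the start in Acta1, 249 in Ckm, 67 in Myh4 and 224 in Myl1. The same letters stood in 13.0% of all 32851 promoter windows of this length, and in 14 of 38 windows (36.8%) of the genes of the rule and of the thick and thin filament lists used below. TATAAA, searched on both strands, was in 3 of the 4 windows, against 12.4% of all windows, and a CArG box, the site of serum response factor, was in Acta1 and Myh4, against 1.47% of all. A match of letters is a description of the window and not a measured binding site.

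The rule genes took 10.2% of all UMIs of fibre barcodes, against 0.00424% of the UMIs of other barcodes, which describes the choice and is no finding. Fibre barcodes held 85070 UMIs of these genes, or 96.0% of them, and other barcodes 3502. The summed level had a median of 1263 CP10K over the fibre barcodes and a highest value of 1811, with 81 barcodes at 1000 or more, 19 between 500 and 1000 and 16 below 500. The lowest barcodes inside the threshold stood at 102, 143 and 156 CP10K and the highest outside it at 72.5, 50.9 and 47.8. Acta1, Ckm, Tnnt3 and Myl1 each had UMIs in all 116 fibre barcodes, while Myh4 had them in 69.

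The library held 8367 barcodes, 32285 genes and 83725065 UMIs, with no replicate. Intervals are 95% intervals, exact Poisson for sums of UMIs and Clopper-Pearson for shares, and they cover counting error only. Fibre barcodes had a median of 5086 UMIs (range 537 to 39108) and 1306.5 genes (255 to 6291), against medians of 9757 UMIs and 2936 genes in other barcodes. Muscle RNA was also found outside the fibre barcodes, where 23.5% of other barcodes (1885) held a UMI of a rule gene, and its source was not tested. For 20 muscle genes, the other barcodes together held between 1.45 and 12.6 UMIs for every 100 UMIs in the fibre barcodes, with a median of 4.61. The tropomyosin genes Tpm1 and Tpm2, which other cells use as well, stood above this range, at 87.0 and 17.9.

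Some fibre barcodes also held RNA of other skin cells. In 20 of the 116, at least 3 of 5 markers of fibroblasts (13 barcodes), keratinocytes (6) or macrophages (2) had a UMI, and 15 of these 20 were called doublets by scrublet, against 3 of the 96 without such markers. Over all 116 these markers were sparse. Those of fibroblasts took 0.240% of fibre UMIs, against 1.03% in other barcodes, with 5 of 5 at least 2-fold lower, as were 49.5% of all genes compared between the groups. Those of keratinocytes took 0.122%, against 0.340%, with 4 of 5 lower, and those of macrophages 0.0104%, against 0.0909%, with 5 of 5 lower. Relative to the median gene of that comparison 2, 0 and 5 of these markers passed 2-fold. In the 96, which were chosen by these markers, the same lists took 0.00597%, 0.00527% and 0.00667%. The 20 stood lower on the muscle score, with a median of 341 CP10K against 1343 in the 96, and held more UMIs, with medians of 14915 and 4364.5. Below 500 CP10K 13 of 16 fibre barcodes carried the other markers, between 500 and 1000 it was 5 of 19, and at 1000 or more 2 of 81. Several values that these barcodes move are therefore given for all 116 and for the 96. A droplet with RNA of 2 cells and a droplet with free RNA of another cell cannot be told apart here.

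Satellite cells, the stem cells of muscle, left few UMIs in the fibre barcodes. Their markers gave 4 UMIs in all, 3 of Cdh15 and 1 of Pax7, while Myf5, Calcr, Chodl and Msc had 0. Summed, these markers stood at 4.77 CPM (1.30 to 12.2), against 2.77 CPM in other barcodes. The 5 cardiac markers (Myh6, Nppa, Myl7, Tnni3 and Mybpc3) had 0 UMIs in the 837826 UMIs of the fibre barcodes, which allows up to 3.58 UMIs per 1000000 (CPM) for each. Of the smooth muscle and pericyte markers Myh11, Tagln, Cnn1 and Rgs5 had 0 and Acta2 had 2, while Lmod1, the leiomodin of smooth muscle, had 15 UMIs in 10 fibre barcodes (17.9 CPM, against 1.34 CPM in other barcodes). The neutrophil markers gave 1 UMI, of S100a9, the T cell markers 5, the endothelial markers 9, the Schwann cell markers 14, the adipocyte markers 1 and the haemoglobin genes of erythrocytes 0. Of the tendon markers Tnmd and Fmod had 0, while Scx, a transcription factor of tendon, had 24 UMIs in 20 fibre barcodes (28.6 CPM, against 1.75 CPM in other barcodes). By these lists the label of skeletal muscle fits the barcodes, although some markers of other cells were higher in them. Of the markers with at least 50 UMIs in all, these were Lmod1 and Scx. Cdh15 and Pax7, with fewer UMIs, had log2 ratios of fibre over other barcodes of 5.97 and 4.51. Sox10, of the Schwann cell list, and Egfl7, of the endothelial list, stood at 2.999 and 2.02. The ratios of Cdh15, Pax7, Sox10 and Egfl7 rest on few UMIs.

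The pooled UMIs of the fibre barcodes were set against those of all other barcodes, gene by gene, as a log2 ratio of CPM with 0.5 UMIs added to each sum. Among 15408 genes with at least 50 UMIs in all, 1617 (10.5%) were at least 2-fold higher in fibre barcodes and 7620 (49.5%) at least 2-fold lower. The rule used this contrast, so these numbers describe the barcodes and carry no test. The median gene stood at -0.98 on the log2 scale, and the muscle list genes that were 2-fold higher took 32.4% of fibre UMIs, against 0.987% of other UMIs. Scaled to that median gene, 3501 genes were higher and 2892 lower. Each list below is read beside the median of -0.98.

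**Figure D1:**
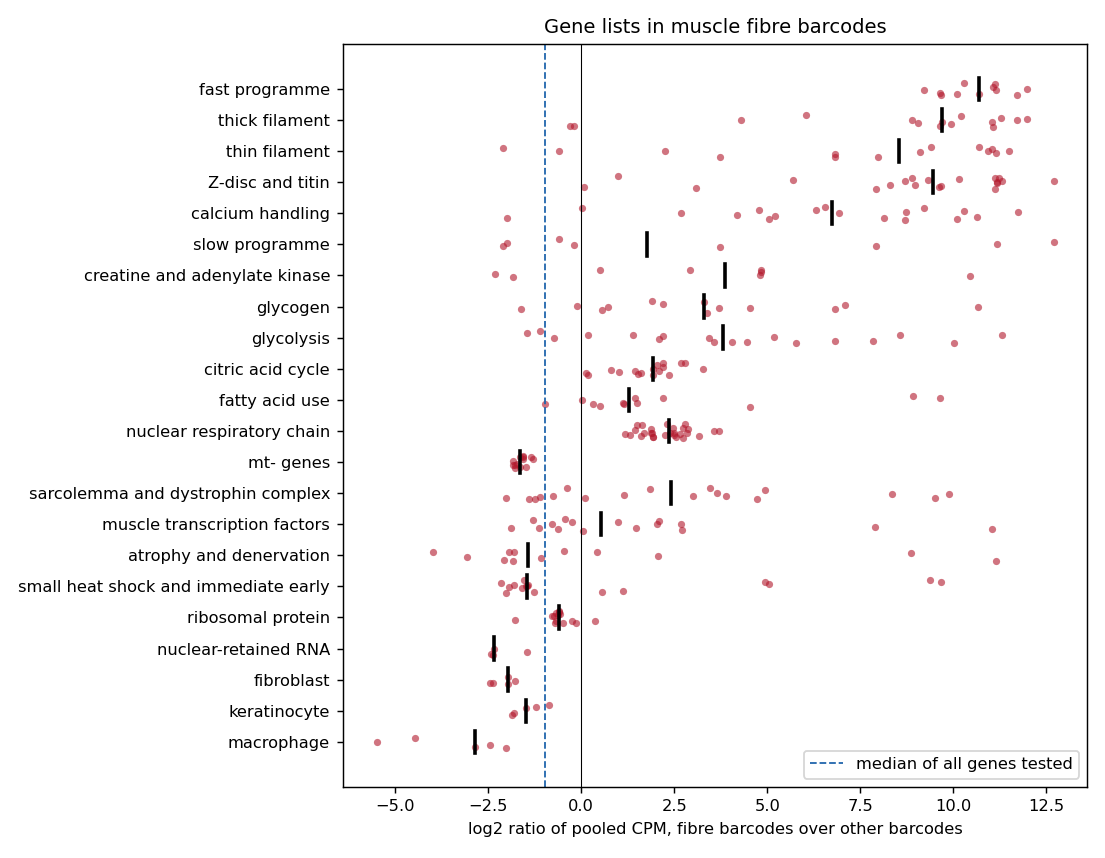
Log2 ratio of pooled CPM, fibre barcodes over other barcodes, for each measured gene (points) of 22 lists, with the list median (black bar) and the median of all genes tested (dashed line at -0.98). The contractile lists have their medians near 7 to 11, the energy lists near 1 to 4, and the mt- genes and nuclear-retained RNAs lie left of the dashed line.

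The thick filament genes took 4.42% of the UMIs of fibre barcodes, against 0.00300% in other barcodes. Of 15 measured genes of this list 13 were at least 2-fold higher and 0 lower, with a median log2 ratio of 9.69. The list holds Myl1 and Myh4 of the rule, and without them it took 2.84% against 0.00232%, with 11 of 13 genes higher. Mylpf, the fast regulatory light chain, stood between 22.8 and 856 CP10K over the 116 barcodes with a median of 305, and pooled it reached 26451 CPM (26103 to 26801) against 12.3 CPM in other barcodes. No fibre barcode lacked it, while 801 of 8011 other barcodes held at least 1 of its UMIs. Mybpc2 and Mybpc1, the fast and slow myosin binding proteins C, reached 419 and 321 CPM against 0.520 and 0.605 CPM in other barcodes. Myl2 had 0 UMIs and Myl4 and Myl3 had 3 and 2, these being light chains of slow, developing or cardiac muscle.

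The thin filament genes took 14.7% of fibre UMIs, against 0.0422% in other barcodes. Of 14 measured genes 12 were higher and 1 lower, with a median of 8.55. Without Acta1 and Tnnt3, which the rule used, the list took 7.62% against 0.0394%, with 10 of 12 genes higher, 1 lower and a median of 7.40. The fast troponins C and I were found in every fibre barcode. Troponin C (Tnnc2) stood between 38.4 and 672 CP10K (median 348) and troponin I (Tnni2) between 24.4 and 524 CP10K (median 283) over the fibre barcodes. Their slow counterparts were close to absent: Tnnc1 had 0 UMIs, Tnni1 had 2 and Tnnt1 had 16. The tropomyosins divided as well, with Tpm1 at 12269 and Tpm2 at 13175 CPM, against 108 and 23.9 CPM in other barcodes, whereas Tpm3, the slow and non-muscle form, was the 1 gene that was lower, at 46.5 against 204 CPM. Actc1, the cardiac actin that fetal skeletal muscle also uses, had 11 UMIs in 10 fibre barcodes, and reads of so similar a gene as Acta1 may be split between the pair.

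Z-disc genes, which anchor the thin filaments and titin, were higher in 18 of 20 cases, lower in 0, with a median of 9.46. Tcap, the titin cap, reached 3324 CPM against 1.38 CPM, Des, the muscle intermediate filament, 3050 CPM against 3.91 CPM, and Myoz1, the fast calsarcin, 1913 CPM against 0.847 CPM. Csrp3, the muscle LIM protein of the Z-disc, had the largest log2 ratio of any list gene, 12.70, at 1486 CPM against 0.218 CPM. It was unevenly held: its level ran from 0 to 202 CP10K with a median of 5.72, and 44 of 116 fibre barcodes had none. Ttn, the giant spring protein, had 823 UMIs in 100 barcodes, and Neb, the ruler of the thin filament, 386 in 87.

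Genes of calcium release and uptake, which couple the nerve signal to contraction, were higher in 16 of 18 cases and lower in 1, with a median of 6.75. Pvalb, the calcium buffer of fast fibres, stood at 2450 CPM against 2.24 CPM, and Atp2a1, the fast calcium pump of the sarcoplasmic reticulum, at 2446 CPM against 1.95 CPM. The slow and general pump Atp2a2 was the gene that was lower, at 34.6 against 141 CPM. Sln, a small inhibitor of the pump, reached 436 CPM but had a UMI in 49 barcodes only. The channel genes themselves were sparse, with 87 UMIs of Ryr1, the release channel, and 107 of Cacna1s, its voltage sensor.

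The fast programme was present as a whole and the slow programme in parts. All 11 measured fast genes were higher, with a median of 10.68 and summed levels between 112 and 1797 CP10K, so that no fibre barcode lacked the list. Of 8 measured slow genes 4 were higher and 2 lower. The 4 were Csrp3, Myoz2 (244 UMIs in 47 barcodes), Ankrd2 (147 UMIs in 39) and Tnnt1, and the first 3 of these are Z-disc or stretch-related proteins. Myh7, the slow myosin heavy chain, had 0 UMIs in fibre barcodes and 1 in all others, and the slow troponin C and slow light chain Myl2 had 0 as well.

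Myosin heavy chain genes divide adult fibres into type I (Myh7), IIa (Myh2), IIx (Myh1) and IIb (Myh4), in the order of rising speed. Myh3, Myh2, Myh1, Myh4, Myh8 and Myh13 lie in this order on mouse chromosome 11 between positions 67078300 and 67371586 (mm10), and Myh7 on chromosome 14. The fibre barcodes held 1082 UMIs of the adult genes: 566 of Myh4, or 52.3% (49.3 to 55.3), 455 of Myh1, or 42.1% (39.1 to 45.1), 61 of Myh2, or 5.64% (4.34 to 7.18), and 0 of Myh7, which is at most 0.340%. In the 96 barcodes without other markers the Myh4 share was 47.5% and the Myh1 share 46.1%. Myh4 is a gene of the rule, so its share is favoured by the choice, the shares are of UMIs with no correction for transcript length, and reads of these near-identical genes may be split between them.

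Some barcodes held 1 heavy chain isoform and others held 2. Of the 108 fibre barcodes with any adult heavy chain UMI, 40 held Myh4 alone, 25 Myh1 alone, 29 Myh1 with Myh4, and 14 held Myh2. Myh2 met Myh1 in 11 of those 14 and Myh4 in 0, and it stood alone in 3. Barcodes with few such UMIs can hardly show a second isoform: 2 isoforms were found in 1 of the 19 barcodes with 1 or 2 of these UMIs, in 39 of the 89 with 3 or more and in 19 of the 38 with 10 or more. Among the 89 barcodes with 3 or more such UMIs, Myh4 made up the majority in 42, Myh1 in 39 and Myh2 in 4, with no majority in 4. Other barcodes held 56 UMIs of Myh4, 13 of Myh1 and 1 of Myh2 in all. Of the developmental genes, Myh3 had 0 UMIs in fibre barcodes, and the 5 UMIs of Myh8 all lay in 1 barcode. Myh13, the heavy chain of eye muscles, had 0 as well.

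**Figure D2:**
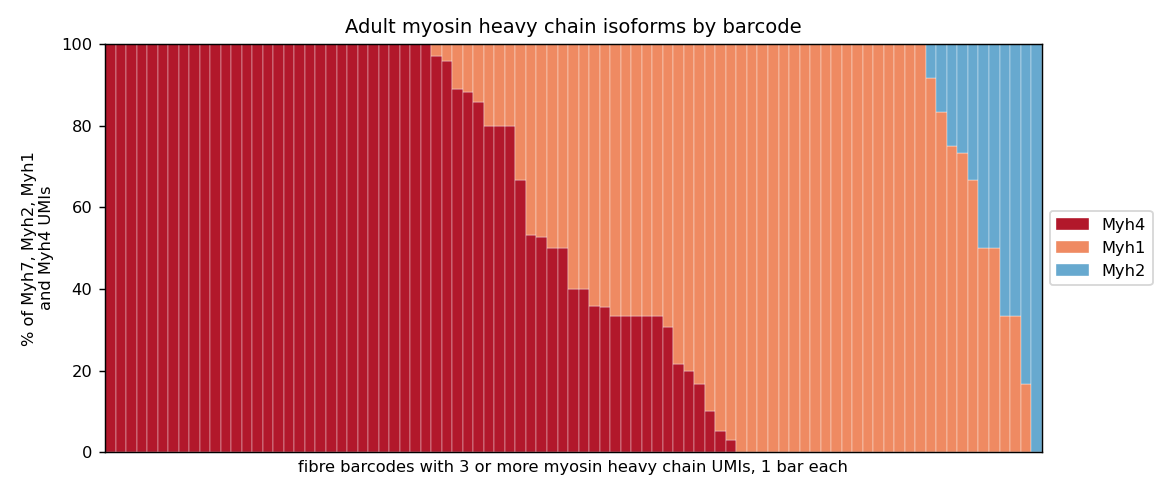
Share of the adult myosin heavy chain UMIs of each of the 89 fibre barcodes with 3 or more of them that came from Myh4, Myh1 and Myh2 (Myh7 had 0), 1 bar a barcode, sorted by share. Of the 89 bars 50 hold 1 colour and 39 hold 2, mixtures run from Myh4 to Myh1 and from Myh1 to Myh2, and no bar holds both Myh4 and Myh2.

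The barcodes led by different heavy chains differed in genes that the rule and the grouping did not use. For this the 20 barcodes with other markers and those with 10 or more Malat1 UMIs were left out, a limit chosen after seeing the data, which left 33 Myh4-led, 33 Myh1-led and 4 Myh2-led barcodes. Their median totals were 3515, 6542 and 6327 UMIs. Among 485 genes with at least 100 UMIs in the 2 larger groups, 6 (1.24%) were at least 2-fold higher in Myh4-led barcodes, Myh4 among them, and 26 (5.36%) at least 2-fold lower, Myh1 among them. The barcodes come from 1 library and an unknown number of mice, so no test was made.

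Pvalb and Actn3 marked the Myh4-led end. Pvalb had a median of 62.2 CP10K in Myh4-led barcodes (11.5 to 166), against 16.1 CP10K in Myh1-led barcodes (0 to 48.1), a pooled difference of 3.85-fold (3.39 to 4.37). In 32 of 33 Myh4-led barcodes the level lay above the Myh1-led median, although the ranges overlapped. Actn3, the fast alpha-actinin, had pooled levels of 2274 CPM in Myh4-led, 559 CPM in Myh1-led and 0 CPM in Myh2-led barcodes, with 0 UMIs in all 4 of these last. Mybpc2 followed the same order, with 785, 329 and 29.9 CPM. Myl1, which the rule did use, stood at 28053, 15976 and 11520 CPM.

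Csrp3, Ldhb and Fabp3 marked the other end. Csrp3 had a median of 0 CP10K in Myh4-led barcodes (0 to 62.2), against 24.0 CP10K in Myh1-led barcodes (1.16 to 202). All 33 Myh1-led barcodes held it, and pooled it was 200 CPM against 4047 CPM, with 2154 CPM in Myh2-led barcodes. Ldhb, the lactate dehydrogenase subunit of oxidative tissue, stood at 92.4 CPM in Myh4-led, 672 CPM in Myh1-led and 1287 CPM in Myh2-led barcodes, and Fabp3, the fatty acid carrier of muscle and heart, at 457, 1843 and 2454 CPM. Sln stood at 92.4, 808 and 2633 CPM in the same order of groups. Mb, the oxygen store myoglobin, had a median of 6.04 CP10K in Myh4-led barcodes and 33.8 CP10K in Myh1-led barcodes, and in each of the 4 Myh2-led barcodes it lay between 34.0 and 98.7 CP10K. The remaining genes at least 2-fold lower in Myh4-led barcodes included Fhl1, Hspb7, Actn2, Lmod2 and Mustn1, a small nuclear protein of muscle and bone.

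**Figure D3:**
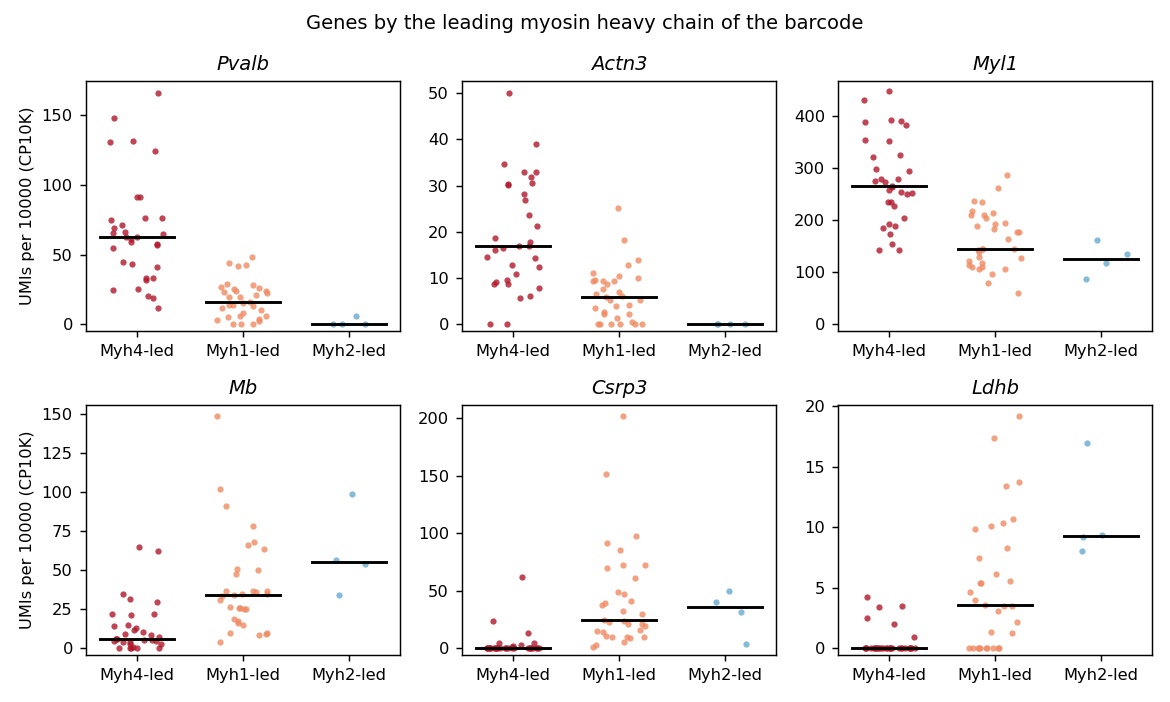
Level (CP10K) of 6 genes in each of 33 Myh4-led, 33 Myh1-led and 4 Myh2-led fibre barcodes, with the group median as a bar. Pvalb, Actn3 and Myl1 are highest in Myh4-led barcodes, and Mb, Csrp3 and Ldhb are lowest there, with overlapping ranges.

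The energy lists were also summed in these barcodes. The glycolysis list took 54073 CPM in Myh4-led, 44187 CPM in Myh1-led and 32345 CPM in Myh2-led barcodes. The glycogen list took 2792, 3088 and 2783 CPM and followed no such order. The order was turned round for the citric acid cycle, at 3536, 5758 and 7091 CPM, and for the nuclear genes of the respiratory chain, at 36901, 46180 and 56641 CPM. So it was for fatty acid use, at 2535, 7798 and 11520 CPM, a list of which Mb and Fabp3 alone had the 100 UMIs to be measured here. Most of these last sums came from Mb, the oxygen store, with 1494, 4498 and 7331 CPM, and Fabp3 kept the same order. The mt- genes did not keep this order, with 2197, 4310 and 59.8 CPM, and their barcode medians were 0.843, 5.42 and 0.303 CP10K. Single genes were less clear-cut, since of 25 measured respiratory chain genes 2 were at least 2-fold lower in Myh4-led barcodes and 0 higher, and of 11 glycolysis genes 1 was lower (Ldhb) and 0 higher. Of the abundant contractile genes, several stood in the order of the glycolysis list. In Myh4-led, Myh1-led and Myh2-led barcodes Mylpf stood at 44835, 30589 and 27318 CPM and Tnnc2 at 45769, 33527 and 30250 CPM. Ckm, of the rule, stood at 24578, 17748 and 14033 CPM. Acta1, at 61612, 68121 and 55564 CPM, and Tpm2, at 17193, 18843 and 17115 CPM, did not keep that order. The calcium pump gene Atp2a1 stood at 3269, 2961 and 2095 CPM. Its barcode medians, at 22.9, 25.1 and 20.7 CP10K, did not keep the order, and the Myh4-led over Myh1-led fold was 1.10 (0.987 to 1.23).

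Against the other barcodes, most fuel genes were higher in the fibre barcodes. Of 18 measured glycolysis genes 14 were higher and 2 lower, with a median of 3.81. Aldoa, the muscle aldolase, reached 13703 CPM against 250 CPM in other barcodes, Gapdh 8126 CPM against 489 CPM, and Eno3 and Pgam2, the muscle enolase and phosphoglycerate mutase, 4451 and 3099 CPM against 4.32 and 1.21 CPM. The 2 lower genes were Hk1 and Pgam1, the general hexokinase and mutase, and relative to the median gene neither passed 2-fold. Fbp2, the muscle fructose bisphosphatase, had 98 UMIs against 25 in all other barcodes.

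Of 13 glycogen genes 9 were higher and 1 lower, with a median of 3.31, and relative to the median gene 11 were higher and 0 lower. Pygm, the muscle phosphorylase whose loss causes McArdle disease in people, had 475 UMIs in 93 fibre barcodes against 413 UMIs in all other barcodes, and Ppp1r3a and Ppp1r3c, which target a phosphatase to glycogen, stood at 166 and 214 CPM against 0.0968 and 1.57 CPM. In the creatine and adenylate kinase list 5 of 8 genes were higher and 2 lower, and relative to the median gene 6 and 1. Slc25a4, the ADP/ATP carrier of muscle mitochondria, stood at 6279 CPM against 223 CPM, and Ckmt2, the mitochondrial creatine kinase, at 279 CPM against 0.194 CPM, while the brain form Ckb was lower, at 32.2 against 117 CPM. For fatty acid use 8 of 12 genes were higher and 0 lower (median 1.29). Mb, an oxygen store that was placed in this list, led at 2308 CPM against 2.90 CPM, before Fabp3 at 876 CPM against 1.80 CPM.

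Citric acid cycle genes were higher in 14 of 17 cases and lower in 0, with a median of 1.93. Idh3a and Idh3b, subunits of the cycle's isocitrate dehydrogenase, stood at 251 and 328 CPM against 26.2 and 48.0 CPM, and Mdh2, the mitochondrial malate dehydrogenase, at 563 against 109 CPM. Every one of the 28 measured nuclear genes of the respiratory chain was at least 2-fold higher in fibre barcodes, under each of the 3 scalings tried, with a median of 2.35. Together they took 3.18% of fibre UMIs, against 0.601% of the UMIs of other barcodes. Atp5g1, a subunit of the rotor of ATP synthase, was 13.0-fold higher (12.4 to 13.6), at 2508 CPM against 194 CPM, and Cox5a, of cytochrome oxidase, 9.02-fold higher (8.59 to 9.48), at 2086 CPM against 231 CPM.

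The mitochondrially encoded partners of these same complexes stood the other way. The 13 mt- genes took 0.535% (0.519 to 0.551) of fibre UMIs, against 1.74% of the UMIs of other barcodes, and the median barcode held 0.0546% and 1.57%. In 40 of 116 fibre barcodes no mt- UMI was found, against 55 of 8011 others. All 13 genes were at least 2-fold lower by CPM, with a median of -1.64, which is -0.65 relative to the median gene, where 0 of 13 passed 2-fold. mt-Co3, a core subunit of cytochrome oxidase, stood at 1041 CPM against 3237 CPM, while the nuclear subunit Cox5a of the same enzyme was higher. Per UMI of the nuclear respiratory chain list the fibre barcodes held 0.168 mt- UMIs, against 2.89 in other barcodes, a ratio that no scaling touches.

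Barcodes without other markers showed this most plainly. In the 96 the mt- share was 0.329%, and 0.0823 mt- UMIs stood beside each nuclear respiratory chain UMI. The median log2 ratio of the mt- list was -2.28 in them, beside -1.27 for all genes. The share was far from even: 12 of the 96 held 1% or more and gave 1179 of the 1876 mt- UMIs, with a highest value of 12.7%, whereas 39 held none. In the 20 barcodes with other markers the median was 0.819%. The 4 Myh2-led barcodes, with the highest respiratory chain level of the fibre types, had a pooled mt- share of 0.00598%. Their median share was 0.00303%, beside 0.00843% in Myh4-led and 0.0542% in Myh1-led barcodes. With 39 of the 96 at 0, 4 barcodes are too few to make this a trait of the type. The mt- limit of the rule played no part at this end, since no removed barcode reached the muscle threshold.

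The shares were also compared at equal depth. When every barcode was thinned to 500 UMIs, which left out 0 barcodes, 43.1% (33.9 to 52.6) of fibre barcodes and 95.5% of other barcodes held any mt- UMI, and the unthinned shares were 65.5% and 99.3%. Cox5a gave the opposite picture in the same thinned barcodes, with 66.4% of fibre barcodes and 10.1% of others. The nuclear-retained RNA Malat1, like the mt- genes, was found in a smaller share of fibre barcodes than of others. After thinning it was found in 15.5% (9.46 to 23.4) of fibre barcodes and 71.9% of others, and before thinning in 34.5% and 95.5%. In the 96 without other markers the thinned shares were 32.3% for any mt- UMI, 74.0% for Cox5a and 7.29% for Malat1.

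Malat1, a long noncoding RNA that stays in the nucleus, took 0.164% of fibre UMIs, against 0.847% of the UMIs of other barcodes. It was at 0 in 76 fibre barcodes and at 0 or 1 UMI in 98. In the 96 barcodes without other markers 92 had at most 1 UMI, and 2 barcodes held 416 of their 445. All 4 nuclear-retained RNAs measured (Malat1, Neat1, Meg3 and Kcnq1ot1) were at least 2-fold lower, with a median of -2.35, and relative to the median gene 3 of 4 were, with a median of -1.37. In the 96 the list median was -3.92, beside -1.27 for all genes. As a group, fibre barcodes were thus low in mt- and in nuclear-retained RNA, and what set this was not tested. Whether the 2 rose together barcode by barcode was not tested. The 15 fibre barcodes with 10 or more Malat1 UMIs had a median mt- share of 0.802%. In the 98 with at most 1 Malat1 UMI it was 0.0194%. Of those 15, 13 carried other markers. The 12 of the 96 with 1% or more mt- UMIs held 0.0299% Malat1, and 11 of them had at most 1 Malat1 UMI.

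**Figure D4:**
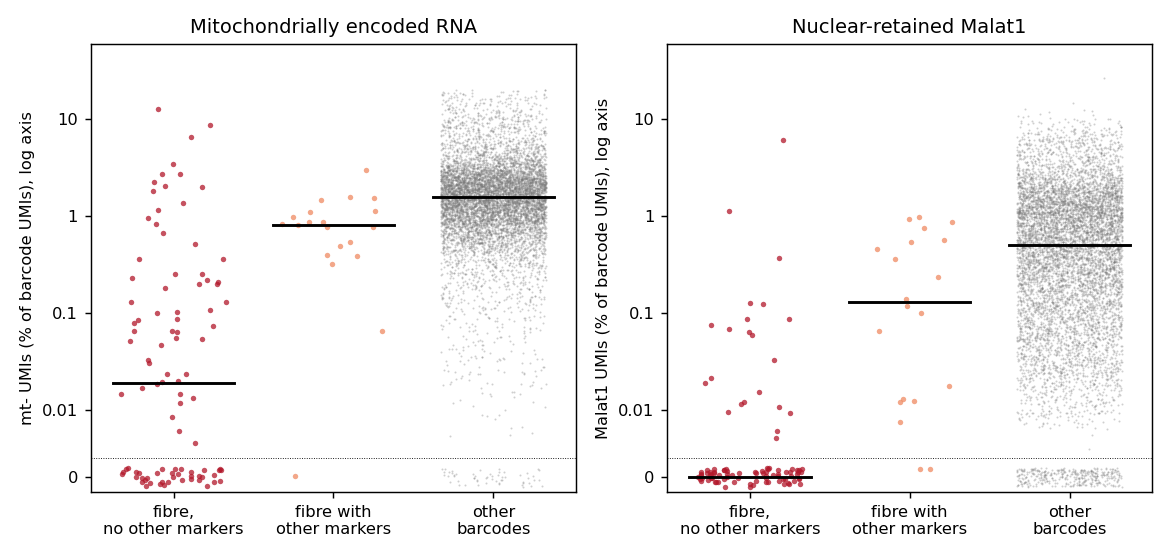
Share of each barcode's UMIs from mt- genes (left) and from Malat1 (right), on a log axis with barcodes at 0 below the dotted line, for 96 fibre barcodes without other markers, 20 with other markers and 8011 other barcodes. Black bars are medians, at 0.0189%, 0.819% and 1.57% for mt- genes, and 74 of the 96 have no Malat1 UMI.

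A fibre barcode with much Malat1 looked unlike the rest. It held 4367 UMIs of 2040 genes, with 270 UMIs of Malat1 (6.18%), 0 mt- UMIs and 0 UMIs of the fibroblast, keratinocyte and macrophage markers, at a muscle score of 392 CP10K. It alone held 135 of the 823 Ttn UMIs of all fibre barcodes (16.4%), 37 of the 63 Dmd UMIs (58.7%) and 35 of the 386 Neb UMIs, genes of very large proteins. It also held all 5 UMIs of Myh8, with 47 of Myh1 and 13 of Myh4. Acta1 was low in it, at 149 CP10K, against a median of 525 over all fibre barcodes. Most fibre barcodes thus had little Malat1 and little Ttn, and this one, singled out after its values were seen, had much of both.

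Many enzymes and structural proteins exist in a muscle form and a general form. In 16 such pairs, chosen after seeing the data, the muscle gene made up the majority of the pair's UMIs in fibre barcodes in 14 and in other barcodes in 0. The pairs of Ckm with Ckb and of Acta1 with Actb hold rule genes, so their shares follow from the choice, and without them the count was 12 of 14. Atp2a1 made up 98.6% of its pair with Atp2a2 in fibre barcodes, against 1.36% in other barcodes, and Pgam2 98.1% of its pair with Pgam1, against 0.924%. The general gene was at least 2-fold lower in 12 pairs, and relative to the median gene in 2.

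Some of the pairs belong to the machinery of translation. Rpl3l, the muscle copy of ribosomal protein L3, made up 54.6% (51.4 to 57.7) of its pair with Rpl3 in fibre barcodes, against 0.0299% in other barcodes, and 89.4% in the 96 without other markers. Rpl3 itself had 0 UMIs in 78 of 116 fibre barcodes, while Rpl3l had UMIs in 101, and the median levels were 6.91 CP10K for Rpl3l and 0 for Rpl3. Eef1a2, the muscle and neuron form of elongation factor 1 alpha, made up 21.9% of its pair with Eef1a1 in all 116 and 74.1% in the 96. Of 14 ribosomal protein genes Rpl3 alone was 2-fold lower over all 116, and the list median was -0.61, which turns to 0.37 relative to the median gene. In the 96 the count was 7 of 14 with a list median of -0.999, beside 8508 of 15400 lower and a median of -1.27 for all genes. Of the cytochrome oxidase pairs Cox6a2 made up 98.0% and Cox8b 82.6% in fibre barcodes, against 0.848% and 0.133% in others. Cox7a1 stayed at 41.9%, against 1.06%, as its general partner Cox7a2 was the only general gene that was higher, at 868 against 256 CPM.

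**Figure D5:**
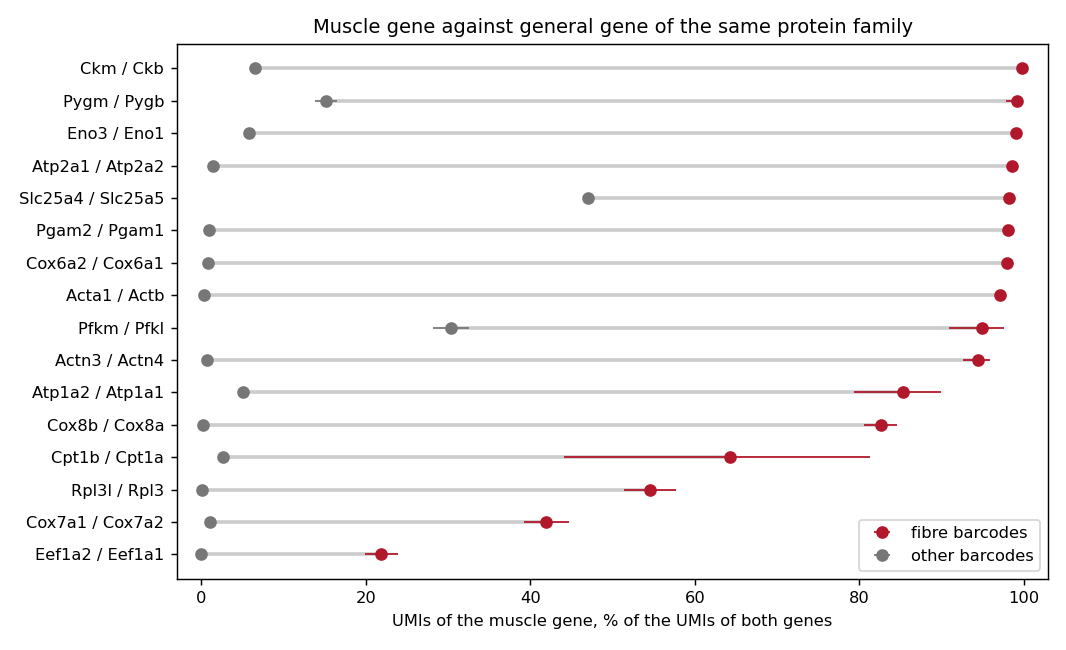
Share of the UMIs of each pair that came from the muscle gene, in fibre barcodes (red) and other barcodes (grey), with 95% Clopper-Pearson intervals that cover counting error only. The red points lie above 50% in 14 of 16 pairs, among them the pairs of the rule genes Ckm and Acta1, and the grey points below 50% in all 16.

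In the sarcolemma and dystrophin list 11 of 18 genes were higher and 4 lower, with a median of 2.42, and relative to the median gene 12 were higher and 1, Utrn, was lower. Cav3, the muscle caveolin, stood at 83.6 CPM against 0.109 CPM, and the sarcoglycan Sgca at 48.9 CPM against 0.145 CPM. Utrn, the utrophin that other cells use in place of dystrophin, was lower, at 65.6 against 270 CPM. Dmd itself stood at 75.2 CPM against 98.2 CPM, a log2 ratio of -0.37, which turns to 0.61 relative to the median gene. Of its 63 UMIs in fibre barcodes 37 lay in the 1 barcode with much Malat1 described above, so these ratios rest largely on that barcode. Among neuromuscular junction genes Rapsn, which clusters the acetylcholine receptor, had 30 UMIs in 25 fibre barcodes. The receptor subunits gave 5 UMIs for Chrna1, 3 for Chrnb1, 1 for Chrne and 0 for Chrnd and the fetal Chrng.

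Transcription factors of muscle were detected at low counts. Of 16 measured, 7 were higher and 3 lower, with a median of 0.52, and relative to the median gene 9 were higher and 0 lower. Myf6, the MyoD family member of mature fibres, had 95 UMIs in 49 fibre barcodes and 4 in all other barcodes. Myod1 had 25 UMIs in 21 barcodes and Myog 12 in 12, against 1 and 0 UMIs in other barcodes. Mef2c was the most frequent, with 426 UMIs in 97 barcodes and 508 CPM against 79.4 CPM. Smyd1, a muscle methyltransferase needed for sarcomeres, had 56 UMIs against 23. H19, an imprinted noncoding RNA that stays active in adult muscle, was found in 91 fibre barcodes, at 834 CPM against 4.13 CPM.

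Of the atrophy and denervation list 3 of 12 genes were higher and 7 lower, with a median of -1.44. That share lower is near the 49.5% of all genes, and relative to the median gene 4 were higher and 3 lower, with a median of -0.46. The 3 higher by CPM were Trim63 (126 UMIs in 65 barcodes) and Fbxo32 (74 in 41), the ubiquitin ligases of muscle wasting, and Mstn, the growth inhibitor myostatin (63 in 27). Gadd45a was at 26.3 CPM against 20.1 CPM. Runx1 and Ncam1, which denervated muscle raises, had 15 and 6 UMIs in fibre barcodes, and of the pair Runx1 alone was 2-fold lower relative to the median gene as well. In the 96 the list median was -2.39, with 3 genes higher and 8 lower. That stood beside a median of -1.27 for all genes, of which 8508 of 15400 were lower. Fbxo21 had 0 UMIs in fibre barcodes, against 783 in other barcodes, which is at least 2.65-fold lower when 3 counts over all fibre barcodes are taken as the limit.

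The stress genes divided in part by kind. Several small heat shock proteins of muscle were higher, with Cryab at 4909 CPM against 159 CPM, Hspb6 at 1164 against 1.74 CPM and Hspb7 at 357 against 0.436 CPM. Hspb1, another small heat shock protein of the list, had a log2 ratio of 0.56 and did not pass 2-fold by CPM. Cryab also differed among the fibres, at 3808, 9415 and 8258 CPM in Myh4-led, Myh1-led and Myh2-led barcodes. The inducible chaperones and immediate early genes, which tissue digestion is known to raise, were lower: Hspa1a stood at 238 against 1064 CPM, Fos at 491 against 1491 CPM and Jun at 415 against 1146 CPM. Of the 16 genes in the list 5 were higher and 10 lower, and relative to the median gene 6 were higher and 2 lower. Fos was found in 50 of the 116 fibre barcodes. In the 96 without other markers the list median was -3.48, beside -1.27 for all genes. In all 116 it was -1.45, beside -0.98 for all genes.

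Outside every list, the 20 largest ratios among genes with at least 200 fibre UMIs ran from 11.81 for Ppp1r27 to 4.82 for Tcea3 on the log2 scale. Ppp1r27 (381 UMIs in fibre barcodes, 10 in others) was followed by Car3, the carbonic anhydrase of muscle and fat, at 5134 CPM against 2.35 CPM, and Apobec2, a muscle member of the cytidine deaminase family, at 2676 CPM against 1.39 CPM. Trim54 and Klhl41, which stabilise the sarcomere, stood at 276 and 363 CPM against 0.194 and 0.266 CPM. Chchd10, a protein of the mitochondrial intermembrane space, reached 2158 CPM against 7.21 CPM. The 20 also held 2310040G24Rik, Cystm1, Ptp4a3 and Tcea3, at 246, 471, 587 and 565 CPM against 2.84, 5.51, 11.8 and 20.1 CPM. Car3 followed the order of the glycolytic genes among the fibre types, at 8653, 5894 and 1646 CPM in Myh4-led, Myh1-led and Myh2-led barcodes.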

How the data were processed

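The deposited matrix of genes by barcodes holds UMI counts, whole numbers that the authors obtained with Cell Ranger on mm10, per the submitters' processing notes, and it carries no normalization. Its version, chemistry and cell calling are not given in the sources used here. The hashtag library was not used here, so no barcode was assigned to depleted or control skin.

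Barcodes with under 200 genes (87) or over 20% mt- UMIs (237) were removed, 240 in all. Doublets were called by scrublet in Scanpy 1.11.5 (expected rate 6%) and kept, as the rule for fibre barcodes asks. UMIs were summed over fibre and over other barcodes and scaled to the UMIs of each group (CPM). Folds divide the CPM of the groups and carry exact conditional intervals. A log2 ratio has 0.5 UMIs added to each sum. Genes with at least 50 UMIs were compared, and 2-fold was the limit for higher or lower. For a gene with 0 UMIs the limit is 3 counts. Barcodes are not replicates, so no p-value was computed. Thinning drew 500 UMIs from each barcode. The ratio was tested on simulated counts. The tools were Python 3.11.15 with NumPy 2.4.6, SciPy 1.17.1, pandas 2.3.3 and matplotlib 3.10.9.

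The members and the 35 gene lists were chosen with earlier results of these data known. All 357 list genes had a row in the matrix. Genes named were those of the rule, all myosin heavy chains, the top 3 of each list by CPM, its top 3 by log2 ratio at 20 or more fibre UMIs, and the 20 genes outside the lists with the largest ratio at 200 or more. These came to 146 genes, and other genes in the text, the pairs and the genes set out by leading myosin were chosen after their values were seen. Promoters are from RefSeq (GRCm38.p6) and gene positions from GENCODE on mm10. Alternatives were score thresholds of 50, 200 and 500 CP10K, mt- limits of 10% and none, 500 genes, doublets or barcodes with other markers left out, equal weights, gene minimums, the added UMI, 4-fold and other scalings.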

Additional observations from a re-analysis of the deposited data

How the results depend on the processing

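The number of fibre barcodes stayed between 96 and 118 under every alternative tried. The count of genes at least 2-fold higher was 1617, and it was 9120 with no minimum of UMIs, 676 at 4-fold, 3501 scaled to the median gene and 2554 with muscle list genes left out of both totals. The count lower was 7620, and it was 2834 at 4-fold, 2892 scaled to the median gene and 4953 with muscle genes left out. The last 2 scalings were chosen after seeing the data. The Myh4 share of 52.3% was 47.5% without barcodes that held other markers. The mt- share of 0.535% was 0.559%, 0.461% and 0.359% at score thresholds of 50, 200 and 500 CP10K, 0.503% at an mt- limit of 10%, 0.376% without doublets, 0.329% without other markers and 0.625% with equal weights, beside 1.74% in other barcodes. Of the genes that were higher or lower in Myh4-led barcodes, 6 and 26, there were 35 and 45 with all barcodes kept, 46 lower with only other markers left out and 43 lower at 50 UMIs a gene. Beyond the genes or barcodes that each setting adds or removes, the cause of these shifts was not tested. Of 135 named genes past 2-fold, 134 or 135 stayed past it and 0 turned round under the 4 settings tried. No paired analysis was possible because there is 1 library and no condition per barcode. Depth limits genes with a few UMIs in fibre barcodes, such as the acetylcholine receptor subunits.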
